A study of Mus musculus with 9 samples.

Results

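NF-kappaB is a family of dimeric transcription factors that waits in the cytoplasm, bound by inhibitors of the IkappaB group. Signals from cytokine and pattern-recognition receptors activate a kinase complex that marks the IkappaB proteins for destruction, and the freed dimers enter the nucleus. Among the genes they then switch on are those of their own inhibitors, which closes a feedback loop. In cells of the osteoblast lineage the pathway is known for chemokine and cytokine production and for opposing matrix formation. The genes described here are the subunits Rela, Relb, Nfkb1 and Nfkb2, the inhibitors Nfkbia and Nfkbib (encoding IkappaB alpha and IkappaB beta) and Tnfaip3, a ubiquitin-editing enzyme that shuts the pathway down upstream of the IkappaB kinases. Every probe set whose only platform symbol was one of these 7 gene names was taken. That gave 9 of the 12488 probe sets on the array. They read 6 of the 7 genes, out of 8251 gene symbols in all, and Nfkb1 had no such probe set and was skipped.

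The series profiled total RNA from OB-6, a mouse osteoblastic cell line of bone marrow origin, on 1-colour arrays whose probe set names are of the Affymetrix type. Cells were treated with parathyroid hormone (PTH) for 0, 30 or 60 min, with 3 arrays per time, replicates a, b and c, and 9 in all. The 0 min arrays are the basal level from which both later times are measured, and no time-matched cultures without hormone were analysed here. Neither the PTH dose nor the origin of the replicates (separate cultures or 1) is given in the sources used here. The p-values therefore rest on array-to-array spread that may be purely technical.

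Values are deposited intensities on a linear scale. Log2 fold changes are of the intensity plus 11.8, a constant that shrinks the fold changes of dim probe sets, and come from 1 limma fit over all 7884 probe sets bright enough to test. Calls use an adjusted p (Benjamini-Hochberg, over all of them) under 0.05. Of the 9 member probe sets 7 were tested. Of 7 osteoblastic markers with a probe set 6 were tested. Col1a1, Col1a2, Sparc and Bgn lay between 2959 and 6705 on every array, Alpl between 227 and 338, and Ibsp between 38.2 and 119, above the filter on 8 of 9 arrays. The receptor gene Pth1r stood below the detection filter on all 9, between 6.70 and 41.6. Of 8 macrophage and haematopoietic markers 3 were tested (Cd14, Cd68 and Csf1r). Cd14 lay between 927 and 1424 and Cd68 between 93.5 and 149.5, both above the filter on all 9 arrays. Csf1r lay between 32.4 and 105, above it on 8. Of the markers not tested, Ptprc, Adgre1 and Itgam never passed 18.1, Cd79b reached 37.0 and Lyz2 50.1. The summed level of all 8, Cd14 included, ran from 1182 to 1359 at 0 min, 1255 to 1339 at 30 min and 1273 to 1678 at 60 min. All 4 endothelial markers were below the filter on every array, with sums of 29.3 to 45.3 at 0 min, 37.6 to 70.8 at 30 min and 81.1 to 95.3 at 60 min. Of 4 adipocyte markers 3 had a probe set and 2 were tested, and the sums of the 3 lay between 151 and 183 at all times. The part of other cell types in the values below was not tested. Fos, Nr4a1 and Egr1 were taken as the positive control of the treatment. Their summed intensity ran from 148 to 196 at 0 min, 1526 to 2008 at 30 min and 725 to 1147 at 60 min. Without time-matched cultures that had no hormone, the part of PTH in this rise was not tested.

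At 60 min of PTH 3 of the 7 tested probe sets had risen and 0 had fallen, beside 4.35% of all tested probe sets called higher and 8.73% called lower. The 3 were those of Rela, the transactivating subunit, and of the inhibitors Nfkbia and Nfkbib, with rises of 1.35-fold to 1.45-fold. At 30 min limma called 0 of the 7, beside 0.482% of all tested probe sets called higher and 0.457% lower, and 2 of the 7 had an unadjusted p under 0.05, as did 17.9% of all. At 60 min 5 of the 7 had one, beside 32.8% of all. All 7 log2 fold changes at 30 min were above 0, between 0.10 and 0.43. With each gene read by its brightest tested probe set, 3348 of all 5936 genes were also above 0. The median of the 7 was 0.29 at 30 min and 0.37 at 60 min, beside medians of 0.05 and 0.03 over all tested probe sets. Both comparisons share the 0 min arrays.

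**Figure D1:**
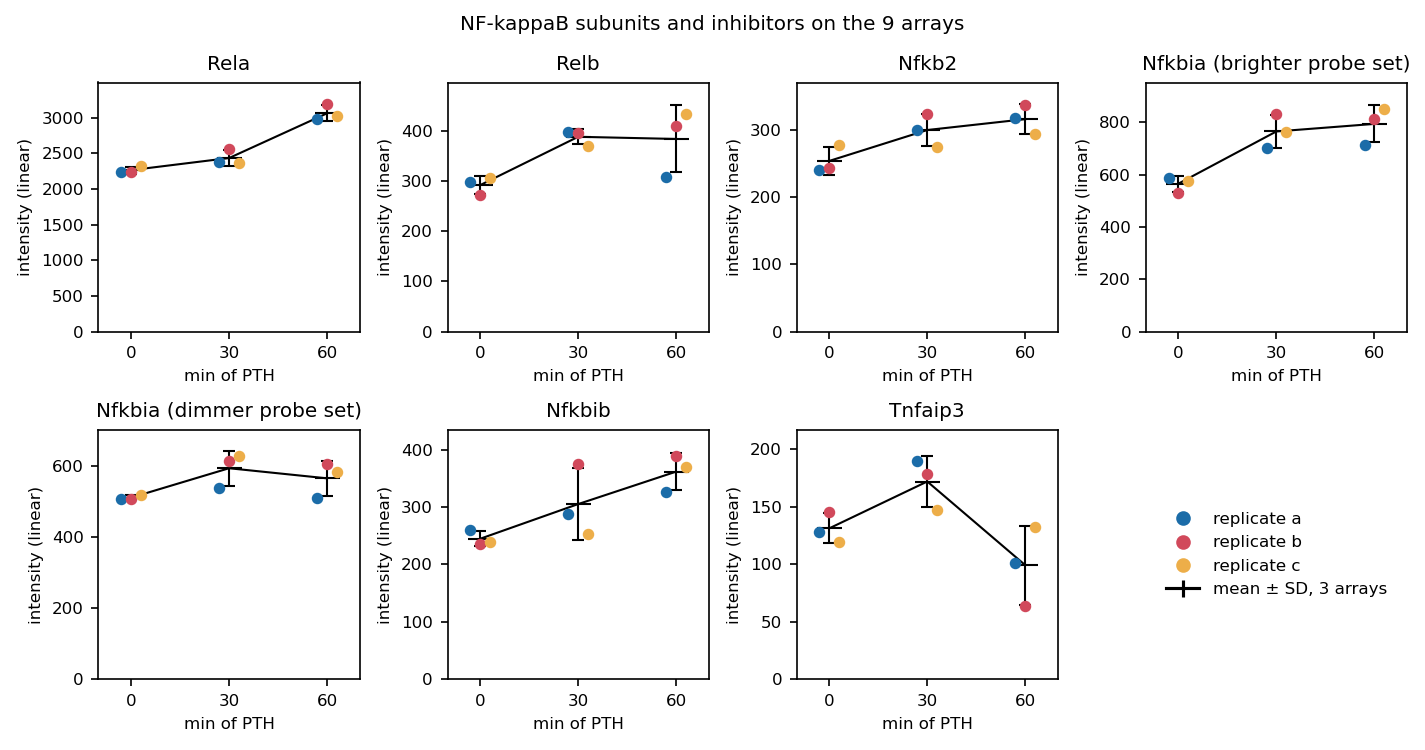
Deposited linear intensity (vertical axes, each from 0) against min of PTH for the 7 tested probe sets, with a point for each array coloured by replicate letter and the mean ± SD of 3 arrays in black. The 3 Rela arrays at 60 min lie at 2976 or more, over all other Rela arrays, while the Tnfaip3 mean goes from 131 to 172 and then to 99.2.

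Among the subunits, Rela had the smallest standard error on the log2 scale (0.08). RelA carries a transactivation domain and forms, with the product of Nfkb1, the dimer released by most inflammatory signals. Its intensities in replicates a, b and c were 2236, 2232 and 2322 at 0 min, 2382, 2555 and 2362 at 30 min, and 2976, 3185 and 3019 at 60 min. All 3 arrays at 60 min lay above all 6 earlier ones, and those at 30 min lay just above those at 0 min. From a mean of 2263 ± 50.6 at 0 min (SD, n = 3 arrays at each time here and below), Rela stood at 2433 ± 106 at 30 min and 3059.9 ± 110.3 at 60 min.

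The rise of Rela at 60 min was 1.35-fold, or 0.43 on the log2 scale (standard error, SE, 0.08), with a 95% interval from 0.25 to 0.61 and a limma adjusted p of 0.0132. At 30 min its log2 fold change was 0.10, with an interval from -0.08 to 0.28 and a limma adjusted p of 0.517. Between 30 and 60 min it was 0.33, with an interval from 0.15 to 0.51. That difference had an unadjusted p of 0.00215 and a limma adjusted p of 0.394, in a comparison where 0.0254% of all tested probe sets passed. Rela was also the 1 of the 7 tested probe sets that passed limma's F test for any change over the 3 times, with an adjusted p of 0.0325, beside 4.64% of all tested probe sets. Its call at 60 min was lost without 0 min replicate a (adjusted p = 0.0696) or 0 min replicate b (0.068), with the log2 fold change staying between 0.40 and 0.45 whichever array was left out. A second Rela probe set lay between 1.70 and 5.0 on all 9 arrays, far under the filter of 44.7, and was not tested.

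Bright probe sets as a group were higher at 60 min, and the part of brightness in the rises of Rela, Nfkbia and Nfkbib was not tested. With the tested probe sets split into 10 equal groups by mean intensity, that of Rela belongs to the brightest group, which starts at 1172. In that group the median log2 fold change at 60 min was 0.20 and 14.4% of probe sets were called higher, while in the dimmest group these values were -0.03 and 0.507%. The brighter Nfkbia probe set and that of Nfkbib belong to groups 9 and 7, counted from the dimmest. There the medians at 60 min were 0.10 and 0.04, and 9.01% and 5.2% of probe sets were called higher. At 30 min the brightest group had a median of 0.05. The intensity range of the arrays moved in the same way, with 99th percentiles of 3474 to 3606 at 0 min and 3852 to 4722 at 60 min, and so did the summed osteoblastic markers, at 16416 to 18274 and 19352 to 23696. Scalings that bring the ranges together lowered the Rela log2 fold change to 0.30 (quantile normalization, limma adjusted p = 0.0214) and 0.25 (cyclic loess, 0.0407), and the call remained under both. Scaling to the 75th percentile, which multiplies each array by 1 factor, raised it to 0.50 (0.0126).

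**Figure D2:**
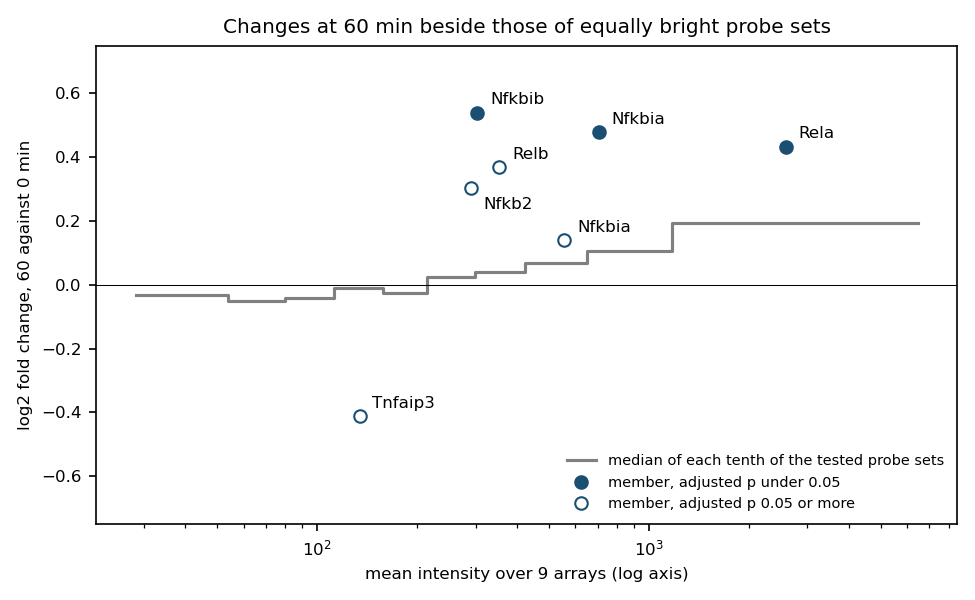
Log2 fold change at 60 against 0 min (vertical axis) against mean intensity over the 9 arrays (horizontal log axis) for the 7 tested member probe sets, filled where the limma adjusted p is under 0.05. The grey step line is the median of each of 10 equal groups of the tested probe sets by brightness. It climbs from -0.03 to 0.20. The 3 called members lie above it, as do Relb, Nfkb2 and the dimmer Nfkbia probe set, while Tnfaip3 lies below.

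Relb and Nfkb2 encode the subunits of the non-canonical dimer, in which RelB pairs with the processed Nfkb2 product downstream of receptors such as that for lymphotoxin. The Relb probe set read 298, 271 and 305 at 0 min in replicates a, b and c. It read 397, 396 and 370.4 at 30 min and 308, 409.9 and 433 at 60 min. Every later array exceeded every 0 min array, although 60 min replicate a did so by little. The log2 fold change of Relb was 0.40 at 30 min (interval 0.09 to 0.71, limma adjusted p = 0.177) and 0.37 at 60 min (interval 0.06 to 0.68, limma adjusted p = 0.0986). It did not pass at either time. Without 60 min replicate a the value at 60 min was 0.51 with a limma adjusted p of 0.0234, and all the alternatives together gave 0.0234 to 0.257. A second, dim Relb probe set was not tested and lay between 10.1 and 14.3 on 7 arrays, with 38.7 on 30 min replicate c and 57.3 on 60 min replicate c.

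Nfkb2 read 241, 244 and 278 at 0 min, 301, 324 and 276 at 30 min and 318, 338 and 294 at 60 min. The 60 min arrays lay above the 0 min arrays, and those at 30 min overlapped them. Its log2 fold changes of 0.23 at 30 min (interval -0.04 to 0.50) and 0.30 at 60 min (interval 0.04 to 0.57) had limma adjusted p of 0.344 and 0.112. Differences between 30 and 60 min for Relb (-0.03, interval -0.34 to 0.28) and Nfkb2 (0.07, interval -0.19 to 0.34) did not pass either, and their intervals allow a change of 0.3 on the log2 scale.

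The inhibitor genes are described with the bases before their transcription starts, since Nfkbia and Tnfaip3 are textbook NF-kappaB targets and Rela, Nfkbia and Nfkbib were higher together at 60 min. The sequences are RefSeq promoter windows of build GRCm38.p6, which hold 5 of the 7 genes in 8 windows, and the 250 bases before each start were searched on both strands. The motifs were the kappaB consensus, a stricter kappaB form (GGANTTTCC), the CRE bound by CREB (TGACGTCA), its core (TGACG) and the AP-1 site (TGANTCA). The 2 kappaB forms can overlap each other, and the core lies within the CRE. Stretches that lie in any annotated gene, also in the gene itself, are left out of the letters shown. The longest run of the rest is printed, and capitals mark kappaB matches of either form. The Nfkbia stretch is chr12:55492648-55492897 on the minus strand, that of Tnfaip3 chr10:19015411-19015660 on the minus strand, that of Nfkbib chr7:28766645-28766751 on the minus strand and that of Rela chr19:5637291-5637441 on the plus strand, each written 5′ to 3′ along the gene:
Nfkbia: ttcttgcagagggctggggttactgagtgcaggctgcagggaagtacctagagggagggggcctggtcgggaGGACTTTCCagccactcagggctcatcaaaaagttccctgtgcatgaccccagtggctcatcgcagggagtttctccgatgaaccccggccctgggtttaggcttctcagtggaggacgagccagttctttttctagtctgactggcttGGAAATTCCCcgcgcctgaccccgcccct
Tnfaip3: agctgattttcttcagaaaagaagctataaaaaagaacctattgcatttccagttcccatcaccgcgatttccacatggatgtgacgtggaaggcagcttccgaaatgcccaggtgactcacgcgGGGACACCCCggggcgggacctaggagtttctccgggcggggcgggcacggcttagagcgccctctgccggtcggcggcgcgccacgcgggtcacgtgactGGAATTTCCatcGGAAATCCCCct
Nfkbib: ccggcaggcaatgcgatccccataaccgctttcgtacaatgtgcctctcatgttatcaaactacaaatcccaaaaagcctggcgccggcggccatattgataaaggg
Rela: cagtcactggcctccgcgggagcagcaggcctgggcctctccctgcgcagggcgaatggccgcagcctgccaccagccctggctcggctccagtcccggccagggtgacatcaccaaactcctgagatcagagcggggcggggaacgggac

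In the Nfkbia stretch the first capital run starts 178 bases before the start and the second 29 bases before it. The Tnfaip3 stretch holds runs that start 125, 24 and 12 bases before the start, with an AP-1 match at 136 and a CRE core at 168. A second Tnfaip3 window, whose letters are not shown, has no match to any of the motifs. Neither kappaB form is in the 250 bases of Nfkbib, which hold 1 CRE core at 159 (outside the letters shown), and the Rela window has no match to any of the motifs. Each of the 3 Nfkb2 windows has at least 1 kappaB match. Over all 32851 windows the kappaB consensus is in 7.25%, the stricter form in 1.07%, the CRE in 1.55%, its core in 17.8% and the AP-1 site in 6.75%. A match is a string of letters and not an observed binding site, and the part of such matches in the changes was not tested. Of the genes called higher at 60 min, Rela and Nfkbib have no kappaB match here and Nfkbia has both forms. Tnfaip3, with 3 marked runs in 1 of its 2 windows, and Nfkb2, with a match in each of its 3, did not pass. Relb and Nfkb1 have no window here.

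Nfkbia, whose protein IkappaB alpha is the fast-resynthesised inhibitor of the feedback loop, is read by a pair of probe sets. The brighter read 588, 531 and 577 at 0 min, 701, 830.0 and 764 at 30 min and 715, 814 and 853 at 60 min. Every array with PTH lay above every array without it, and the arrays at 30 and 60 min overlapped. From 565 ± 30.1 the level went to 765 ± 64.3 and 794 ± 71.0. The log2 fold change was 0.48 at 60 min (SE 0.11, interval 0.23 to 0.73, limma adjusted p = 0.025), a rise of 1.39-fold. At 30 min it was 0.43 (SE 0.11, interval 0.18 to 0.68), with an unadjusted p of 0.00325 that became a limma adjusted p of 0.102.

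The passing call at 60 min and the missed one at 30 min do not show a difference between the times for Nfkbia. The test between them gave 0.05, with an interval from -0.20 to 0.30 and a limma adjusted p of 0.881. The call at 60 min was lost without 0 min replicate a, b or c or 60 min replicate c, with adjusted p from 0.0668 to 0.103. The call at 30 min was gained without 60 min replicate b, whose median correlation with the other arrays, 0.938, was the lowest of the 9 (limma adjusted p = 0.0412).

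The dimmer Nfkbia probe set gave smaller differences. It read 505, 507 and 518 at 0 min, 537, 614 and 628 at 30 min and 509, 604 and 581 at 60 min. The 30 min arrays lay above the 0 min arrays, and 60 min replicate a lay among them. Its log2 fold changes of 0.21 at 30 min (interval -0.04 to 0.46) and 0.14 at 60 min (interval -0.11 to 0.39) had limma adjusted p of 0.351 and 0.425. On each array the brighter probe set stood above the dimmer one, by 0.14 ± 0.07 on the log2 scale at 0 min, 0.36 ± 0.08 at 30 min and 0.48 ± 0.06 at 60 min. These gaps did not overlap between 0 min and either later time. An exact two-sided permutation test gave p = 0.1 for both, the smallest that 3 arrays against 3 allow. For groups that do not overlap it can give no other value, so it adds nothing to the gaps themselves. The annotation used here does not place the probe sets on transcripts.

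Nfkbib encodes IkappaB beta, a second inhibitor that holds RelA dimers and is as a rule degraded and replaced more slowly. It read 259, 236 and 239 at 0 min, 288, 375 and 252 at 30 min and 326, 389 and 370.2 at 60 min. The 60 min arrays lay above all 0 min arrays, and 30 min replicate c lay below the highest 0 min array. The mean went from 245 ± 12.7 to 305 ± 63.2 and 362 ± 32.3. At 60 min the rise was 1.45-fold, a log2 fold change of 0.54 (SE 0.15, interval 0.21 to 0.87, limma adjusted p = 0.0409). At 30 min it was 0.29 (interval -0.04 to 0.62, limma adjusted p = 0.343). The call sits near the threshold and was lost without 0 min replicate a, b or c or 60 min replicate b or c, with adjusted p from 0.0878 to 0.129. It was also lost with no filter on dim probe sets (0.0601) and without the variance trend (0.058).

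Tnfaip3 had another order of levels. It read 128, 146 and 119.7 at 0 min, 190.3, 179 and 147 at 30 min and 101, 63.8 and 133 at 60 min. The 30 min arrays lay above both other times, narrowly so for replicate c, and the 60 min arrays overlapped those at 0 min. Means were 131 ± 13.2, 172 ± 22.2 and 99.2 ± 34.5. The log2 fold change was 0.36 at 30 min (interval -0.13 to 0.84, limma adjusted p = 0.413) and -0.41 at 60 min (interval -0.90 to 0.07, limma adjusted p = 0.222). Between 30 and 60 min it was -0.77 (SE 0.22, interval -1.26 to -0.28), the widest difference among the 7 probe sets in any comparison. Its unadjusted p was 0.00515 and its limma adjusted p 0.526. The lowest of the 9 values was on 60 min replicate b, and without that array the difference from 30 min was -0.52 and that from 0 min -0.16.

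**Figure D3:**
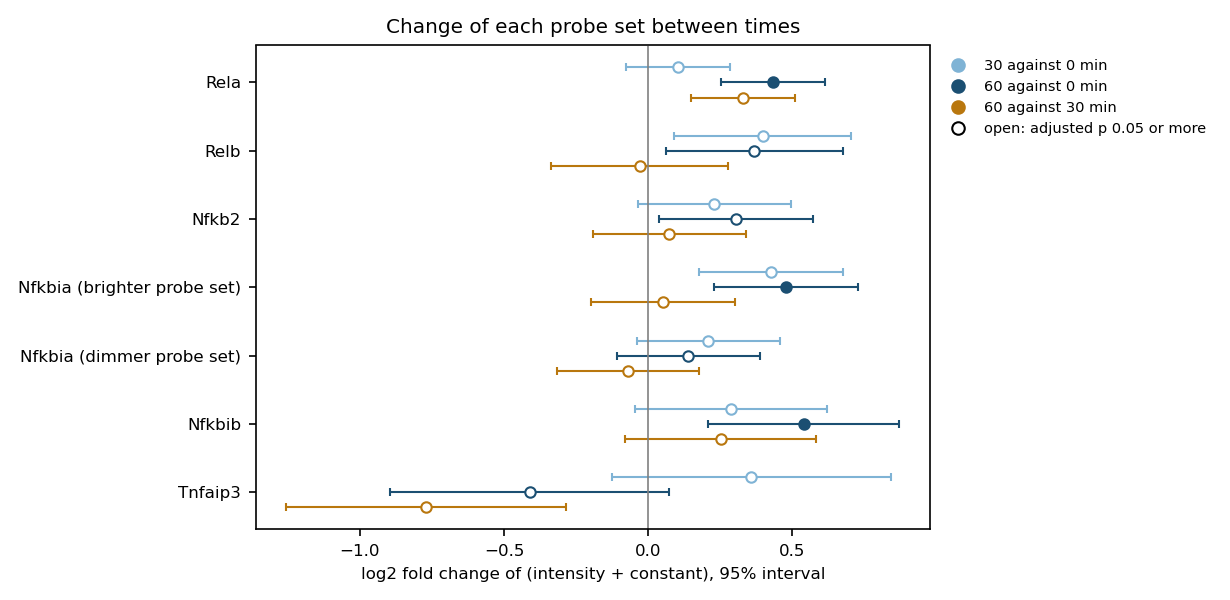
Log2 fold change (horizontal axis) with its 95% interval for each tested member probe set in the 3 comparisons of times, filled where the limma adjusted p is under 0.05. The 3 filled points are Rela, the brighter Nfkbia probe set and Nfkbib at 60 against 0 min, with values from 0.43 to 0.54.

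Whether groups overlapped gives a view that does not rest on the fit. The 3 arrays at 30 min all lay above those at 0 min for 5 of the 7 tested member probe sets, beside 15.3% of all tested probe sets. At 60 min this also held for 5 of the 7, beside 20% of all. The later arrays all lay below for 0 of the 7 at either time, beside 15.3% and 20.7% of all. Between 30 and 60 min the groups were apart for Rela, upward, and Tnfaip3, downward, beside 5.06% and 6.49% of all tested probe sets. Limma called 0 of the 7 between 30 and 60 min, and 2 had an unadjusted p under 0.05, beside 9.07% of all. The pair of Nfkbia probe sets counts as 2 of the 7 although both read 1 gene.

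Over the 9 arrays the log2 values of the brighter Nfkbia probe set had Pearson correlations of 0.90 with Relb, 0.85 with Nfkbib, 0.78 with Nfkb2 and 0.73 with Rela. Those of Tnfaip3 with the 6 other tested probe sets lay between -0.64 (Rela) and 0.02 (Relb). All these points share the same arrays and their scaling, so the values are descriptions only. The probe sets of other genes most like Rela by this measure were those of Mvk, a kinase of sterol synthesis (r = 0.99), Lrrc59 (0.97) and Ak1, an adenylate kinase (0.96). Their log2 fold changes at 60 min were 0.68, 0.32 and 0.50, and at 30 min 0.20, 0.12 and 0.14. Most like the brighter Nfkbia probe set were those of Wars, the tryptophan tRNA synthetase (0.97), Kctd10 (0.97) and Mknk2, a kinase of the translation factor eIF4E (0.96). Their log2 fold changes were 0.43, 0.31 and 0.26 at 30 min and 0.56, 0.35 and 0.41 at 60 min. A second probe set of Mvk stood at 0.36 at 60 min, and 2 further ones of Wars stood at 0.21 and -0.06.

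The rest of the pathway was taken from a list of 74 genes in 4 roles, of which 61 had a probe set and 50 were tested by their brightest one. At 60 min 2 of the 50 (4%) were called higher and 4 (8%) lower, beside 4.6% and 9.1% of all 5936 genes tested the same way. At 30 min 2 were called higher and 0 lower, beside 0.573% and 0.489% of those genes. The median log2 fold change of the 50 was 0.00 at 30 min and 0.05 at 60 min, beside 0.05 and 0.04 over all genes. Above 0 were 25 and 29 of the 50, beside 3348 and 3215 of the 5936 genes. Between 30 and 60 min limma called 0 of the 50, beside 2 of the 5936 genes. An unadjusted p under 0.05 was found for 8 of the 50 (16%), beside 9.27% of all genes.

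Upstream of the IkappaB kinases, 12 receptors and adaptors were tested. At 60 min 1 of the 12 (8.33%) was called lower and 0 higher, beside 9.1% and 4.6% of all genes. Tank, a TRAF-binding scaffold that links to the kinase Tbk1, fell by 1.19 on the log2 scale at 60 min (SE 0.22, limma adjusted p = 0.0125), from 206 ± 28.4 to 83.3 ± 11.5. At 30 min it already stood at 99.9 ± 31.8 (log2 fold change -0.99, limma adjusted p = 0.0678). That value passed in 7 alternatives, among them quantile normalization (0.0355), cyclic loess (0.0455) and the fits without 30 min replicate a (0.0213) or 60 min replicate b (0.0262). The 60 min call was lost without 0 min replicate a or b. Tradd, the adaptor of the TNF receptor and the brightest of this role, read 653 ± 51.4, 999 ± 140 and 997 ± 288 at the 3 times. Its log2 fold changes of 0.60 and 0.57 missed the threshold (limma adjusted p = 0.142 and 0.0641).

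Of 7 kinases tested, 1 (14.3%) was called lower at 60 min and 0 higher, beside 9.1% and 4.6% of all genes. That 1 was Tbk1. It encodes an IkappaB kinase relative that acts with Tank, and its level went from 392 ± 20.9 at 0 min to 290 ± 62.3 and 226 ± 76.7. It fell by 0.82 at 60 min (SE 0.23, limma adjusted p = 0.0405), a call lost without 0 min replicate a, b or c, 30 min replicate c or 60 min replicate b or c. It was also lost with no filter (0.0648), without the variance trend (0.0616) and in the fit of these 2 times alone (0.0513). Without 60 min replicate b the fall was 0.55. Of the canonical kinase genes Ikbkb and Ikbkg neither passed, with log2 fold changes at 60 min of 0.25 (limma adjusted p = 0.322) and -0.25 (0.349).

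None of the 12 tested genes among other subunits, inhibitors and regulators was called by limma at either time, and 2 at 30 min and 3 at 60 min had an unadjusted p under 0.05 (16.7% and 25%, beside 18.2% and 34.2% of all genes). Nfkbiz, an atypical nuclear IkappaB protein and the brightest of this role, read 507 ± 28.3, 768 ± 79.7 and 680 ± 135. Its log2 fold changes were 0.59 at 30 min (SE 0.15, limma adjusted p = 0.0892) and 0.40 at 60 min (limma adjusted p = 0.0974), with the 3 arrays of each later time above those at 0 min. Bcl3, a nuclear IkappaB family member singled out after its values were seen, read 274 ± 37.2, 220.4 ± 80.7 and 423 ± 54.5. Its log2 fold change was -0.34 at 30 min and 0.61 at 60 min (limma adjusted p = 0.423 and 0.0831), and the 0.95 between 30 and 60 min had an unadjusted p of 0.00111 and a limma adjusted p of 0.335. Nfkbie, the third classical IkappaB gene, stood at 0.11 and 0.23.

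Of 19 tested target genes 3 rose at 1 or both times. At each time 2 of the 19 (10.5%) were called higher, beside 0.573% of all genes at 30 min and 4.6% at 60 min, and 2 (10.5%) were called lower at 60 min, beside 9.1%. Ier3, an early stress-response gene, went from 864 ± 56.6 to 2302 ± 342 at 30 min and 1844 ± 380 at 60 min. Its log2 fold changes of 1.39 (SE 0.16) and 1.06 had limma adjusted p of 0.00207 and 0.00731, and both calls remained whichever array was left out. The chemokine gene Ccl5 went from 151 ± 16.6 to 313 ± 66.0 at 30 min (0.98 on the log2 scale, SE 0.18, limma adjusted p = 0.036) and stood at 205 ± 28.6 at 60 min (0.41, limma adjusted p = 0.135). The 30 min call of Ccl5 was lost without 0 min replicate a, b or c, 30 min replicate b or c or 60 min replicate c, and also with no filter (0.0608) or no variance trend (0.0525). The chemokine gene Cxcl1 stood at 3672 ± 334, 5102 ± 412 and 5073 ± 256, with log2 fold changes of 0.47 at both times. Its limma adjusted p was 0.0535 at 30 min and 0.0173 at 60 min, where the call was lost after quantile normalization (0.20, adjusted p = 0.284), after cyclic loess (0.24, 0.145) and without any 1 of the 0 min arrays. The 30 min value passed in 6 alternatives, among them the stricter filter (0.0453) and the fits without 30 min replicate a (0.0245) or 60 min replicate b (0.0192).

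Other target genes went down or did not pass. Birc2, an inhibitor of apoptosis that also ubiquitinates pathway components, fell by 1.06 at 60 min from 125 ± 2.81 to 56.3 ± 22.4 (limma adjusted p = 0.0236), and a second, dimmer probe set stood at -0.17 (0.812). Tnfrsf11b, the gene of osteoprotegerin, fell by 1.25 at 60 min from 432 ± 48.9 to 183 ± 67.4 (limma adjusted p = 0.0144). Both calls were lost without 0 min replicate a, b or c. Cxcl5, the brightest of the role, stood at -0.09 and -0.30 (limma adjusted p = 0.652 and 0.0748). The chemokine genes Ccl2 and Ccl7 had log2 fold changes between -0.05 and 0.03 at both times, with limma adjusted p between 0.914 and 0.962.

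**Figure D4:**
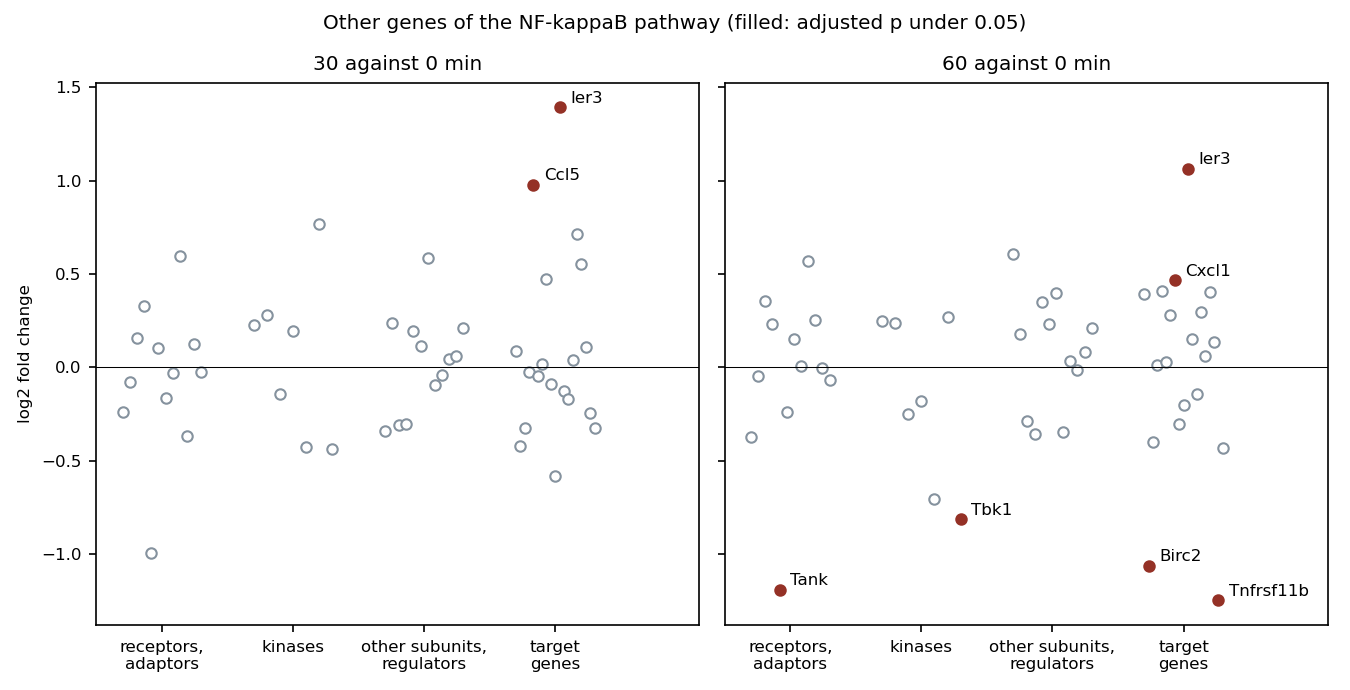
Log2 fold change (vertical axis) of the 50 tested genes of the pathway list at 30 min (left) and 60 min (right) against 0 min, spread along the horizontal axis by role and filled where the limma adjusted p is under 0.05. Ier3 is highest in both panels, at 1.39 and 1.06, and Tank, Tbk1, Birc2 and Tnfrsf11b are filled below 0 at 60 min.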

How the data were processed

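Total RNA of 9 samples was measured on 1-colour arrays. The authors deposited 1 intensity per probe set and array, and how they were summarised and scaled is not given in the sources used here. Leaving out 2% of probe sets at each end, the mean intensity was 250.1 or 250.2 on every array, so the values were taken as scaled. The number of arrays limits the precision.

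Platform annotation gave 1 symbol to 10833 probe sets, several to 396 and none to 1193. The 66 control probe sets were left out. Intensities became log2(intensity + 11.8), the 20th percentile of all values. Tested probe sets had at least 3 arrays above 44.7, the 40th percentile. One mean per time was fitted with limma 3.58.1 in R 4.3.3 (lmFit, eBayes with trend), tested on simulated data, with Benjamini-Hochberg adjustment over all 7884 probe sets. Intervals are 95% from the same fit.

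Members and lists were chosen with earlier results of these data known. Genes are described by their brightest probe set. From the pathway list, genes called in any comparison and the brightest of each role are named, and for the pair of members with the smallest F test p the 3 best-correlated other genes, with Bcl3, Ikbkb, Ikbkg, Nfkbie, Ccl2 and Ccl7 added afterwards. Alternatives were other constants, filters and scalings, no trend, fits of 2 times, a replicate block and each array left out. Figures used matplotlib 3.10.9 in Python 3.11.15.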

Additional observations from a re-analysis of the deposited data

How the results depend on the processing

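The count of member probe sets called at 60 against 0 min was 2 or 3 in all 11 alternatives that kept every array, against 3, and 0 to 4 with 1 array left out. At 30 min it was 0, and 0 to 1 with 1 array left out. Between 30 and 60 min it was 0 throughout. The count passing the F test was 1. It became 2 with the 40th percentile as constant, the stricter filter, quantile normalization, 75th percentile scaling or the replicate block, 0 with no filter, cyclic loess or no trend, and 0 to 3 with 1 array left out. Higher calls in the pathway list at 30 min, 2 in the report, became 1 with no filter or no trend, 5 in fits of 2 times and 1 to 5 with 1 array left out. Lower calls there went from 0 to 1 with the 40th percentile as constant, quantile normalization, cyclic loess, the replicate block or fits of 2 times, and 0 to 1 with 1 array left out. At 60 min the higher calls, 2, became 5 when scaled to the 75th percentile, 1 with cyclic loess and 1 to 4 with 1 array left out, and the lower calls, 4, ranged from 0 to 6. Reversed signs occurred only between 30 and 60 min: Relb 0.0029, 0.026 and 0.00016 after quantile, 75th percentile and cyclic loess scaling and -0.12 to 0.12 with 1 array left out, Cxcl1 0.051 after 75th percentile scaling and -0.071 to 0.045, and Nfkbia -0.0078 to 0.12 and -0.14 to 0.0019 for its brighter and dimmer probe sets. The cause was not tested.

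The values do not settle whether the replicate letters pair the arrays, so the main fit used no pairing. Correlations of deviations between equal letters ran from -0.13 to 0.30, and the own letter was the best match in 8 of 18 cases. With the replicate block all calls went from 74 to 259 at 30 min and from 1031 to 1446 at 60 min, and member calls stayed 0 and 3.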
